A study of Mus musculus with 2 samples.

Results

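The sodium-potassium ATPase is the membrane pump that keeps sodium low and potassium high inside animal cells. The genes described here encode 6 of its accessory subunits, chosen by name: the beta subunits *Atp1b1*, *Atp1b2* and *Atp1b3* and the FXYD proteins *Fxyd1*, *Fxyd6* and *Fxyd7*, of 55536 annotated genes in all. The tissue was the left side of the cerebral cortex of B6CASTF1/J females at an age of 2 months, a first-generation hybrid strain with C57BL/6J and CAST/EiJ as parents, and its total RNA was sequenced. The only group held 2 libraries, replicate 1 and replicate 2, each started from 300 ng of RNA with ERCC spike-in RNAs, and no treatment or engineered allele was named for either. Both tissue samples carry the same donor entry in the labels, so the spread between the libraries may be technical, and no condition was compared.

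The pump is built from a catalytic alpha subunit, which splits ATP and carries the ions, and a beta subunit, a glycoprotein that crosses the membrane and that the alpha subunit needs to fold and reach the cell surface. FXYD proteins are small membrane proteins that join the finished pump and tune its affinity for the ions in a tissue-specific way. In brain the pump restores the ion gradients that neurons spend in firing and helps glia to clear potassium from the space around them.

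The FXYD proteins take their name from a run of residues at the start of their shared domain, proline, phenylalanine, any residue, tyrosine and aspartate. The coding sequence around these codons is shown for 1 reference transcript of each FXYD gene, from the GENCODE M21 transcripts of mm10, because this stretch defines the family; capitals mark the 15 bases of the motif.
Fxyd1-203: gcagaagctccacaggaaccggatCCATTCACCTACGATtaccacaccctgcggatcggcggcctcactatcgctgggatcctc
Fxyd6-201: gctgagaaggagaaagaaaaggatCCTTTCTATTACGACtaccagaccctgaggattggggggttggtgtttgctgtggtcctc
Fxyd7-201: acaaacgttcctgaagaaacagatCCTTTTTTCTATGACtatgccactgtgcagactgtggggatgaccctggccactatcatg
The motif began at codon 28 of 92 in Fxyd1-203, at codon 28 of 94 in Fxyd6-201 and at codon 17 of 80 in Fxyd7-201. The annotated coding sequence of Fxyd7-201 thus holds fewer codons before it. These positions count from the start codon, and the mature proteins were not examined. An in-frame PFXYD motif, searched on the coding strand alone, was found in 33 of 21767 genes with an annotated coding sequence (0.152%), among them all 7 *Fxyd* genes of the annotation. Coding sequences were also aligned end to end, and identity was taken over the paired bases alone, with gaps left out. It was 61.5% between *Fxyd1* and *Fxyd6*, 60.0% between *Fxyd6* and *Fxyd7* and 57.0% between *Fxyd1* and *Fxyd7*, the last over 235 paired bases. The beta subunits have coding lengths of 912 bases in *Atp1b1*, 870 in *Atp1b2* and 834 in *Atp1b3*. On the same measure they were as far apart, at 59.0% between *Atp1b1* and *Atp1b2*, 59.1% between *Atp1b2* and *Atp1b3* and 56.4% between *Atp1b1* and *Atp1b3*.

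*Fxyd6* and *Fxyd7* each have a pair of complete coding transcripts that differ at a single splice junction inside the coding part. These junctions are shown because the results below turn on the share of reads given to each form; capitals mark the bases that only 1 form of the pair holds.
Fxyd6-201: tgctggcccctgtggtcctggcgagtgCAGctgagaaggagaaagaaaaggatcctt
Fxyd6-203: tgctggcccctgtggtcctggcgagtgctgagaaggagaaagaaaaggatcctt
Fxyd7-201: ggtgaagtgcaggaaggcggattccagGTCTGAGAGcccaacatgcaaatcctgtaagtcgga
Fxyd7-202: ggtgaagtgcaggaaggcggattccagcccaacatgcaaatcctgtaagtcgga
The 3 extra bases of Fxyd6-201 lie at chr9:45390634-45390636 on the plus strand of mm10, at the start of an internal exon, and give a coding length of 282 bases against 279 in Fxyd6-203. The 9 extra bases of Fxyd7-201 lie at chr7:31044708-31044716 on the minus strand, at the end of an internal exon, and give a coding length of 240 bases against 231 in Fxyd7-202.

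Levels are given in TPM, the length-corrected share that a gene takes of a library's transcripts, from the gene tables that the authors made from alignments, with mean ± SD over n = 2 libraries. *Atp1b1* led all 6 genes, followed by *Atp1b2*, and the 4 others lay within a narrower range below them. *Fxyd7* was the most abundant FXYD gene. In bulk tissue, fewer cells of a type and less RNA per cell cannot be told apart, and a level here is an average over all cells of the piece.

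*Atp1b1*, which encodes the most widely expressed beta subunit, is gene ENSMUSG00000026576.12, at chr1:164437109-164458355 on the minus strand of mm10. It reached 741 TPM in replicate 1 and 694 TPM in replicate 2, 718 ± 32.9 (SD, n = 2), from 34529 and 35018 expected counts. By TPM *Atp1b1* stood 25th and 28th among 22015 nuclear protein-coding genes, so both libraries placed it near the top of the cortical transcriptome. Its 3′ end overlaps *Nme7*, a gene on the opposite strand with 12.2 TPM in replicate 1 and 10.7 in replicate 2, and the 2 genes share 384 bases of annotated transcript in antisense; whether the counting used strand is not given in the sources used here, and without it reads of that stretch cannot be told apart.

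*Atp1b2* encodes the beta subunit first described on glia as an adhesion molecule, and is gene ENSMUSG00000041329.13, at chr11:69599736-69605942 on the minus strand. Its level was 186 TPM in replicate 1 and 184 in replicate 2, 185 ± 1.56 (SD, n = 2), from 10227 and 10956 expected counts. The libraries were close together here, and *Atp1b2* ranked 359th and 331st among nuclear protein-coding genes. *Atp1b1* stood 3.89-fold above it.

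*Atp1b3*, the remaining beta subunit among the 6 and one found in many tissues, is gene ENSMUSG00000032412.8, at chr9:96332655-96364442 on the minus strand. It had 39.7 TPM in replicate 1 and 34.9 in replicate 2, 37.3 ± 3.38 (SD, n = 2), from 1374 and 1338 expected counts. Its rank was 2984th in replicate 1 and 3241st in replicate 2, the lowest of the beta subunits in both. A processed pseudogene, *Gm1848*, matches *Atp1b3* at 96.4% over 805 bases and was given 2.17 and 0 expected counts, so few reads were placed there.

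Of the FXYD genes, *Fxyd7*, known as a brain-enriched regulator of the pump, is gene ENSMUSG00000036578.7, at chr7:31042513-31051467 on the minus strand. It had 83.3 TPM in replicate 1 and 78.7 in replicate 2, 81.0 ± 3.23 (SD, n = 2), from 967 and 979 expected counts. *Fxyd7* came next after *Atp1b2*, which stood 2.28-fold above it.

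*Fxyd6*, also called phosphohippolin and known from brain, is gene ENSMUSG00000066705.7, at chr9:45370185-45396159 on the plus strand. Its level was 48.6 TPM in replicate 1 and 45.7 in replicate 2, 47.1 ± 2.06 (SD, n = 2), from 1688 and 1698 expected counts. *Fxyd7* lay 1.72-fold above it although *Fxyd6* took more reads, since the transcripts of *Fxyd6* are longer.

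*Fxyd1*, or phospholemman, is best known as a phosphorylated regulator of the pump in heart and skeletal muscle. It is gene ENSMUSG00000036570.14, at chr7:31051678-31057199 on the minus strand, and had 31.6 TPM in replicate 1 and 31.1 in replicate 2, 31.3 ± 0.311 (SD, n = 2). These levels rest on 254 and 280 expected counts, the fewest of the 6 genes. The effective length, by which counts are divided for TPM, was 394 bases in replicate 1 and 411 in replicate 2. The small SD in TPM therefore does not stand for equal counts. *Fxyd1* lies 210 bases from *Fxyd7* on the same strand, and *Fxyd7* in turn 31 bases from *Fxyd5*, so 3 genes of the family stand end to end on chromosome 7.

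**Figure D1:**
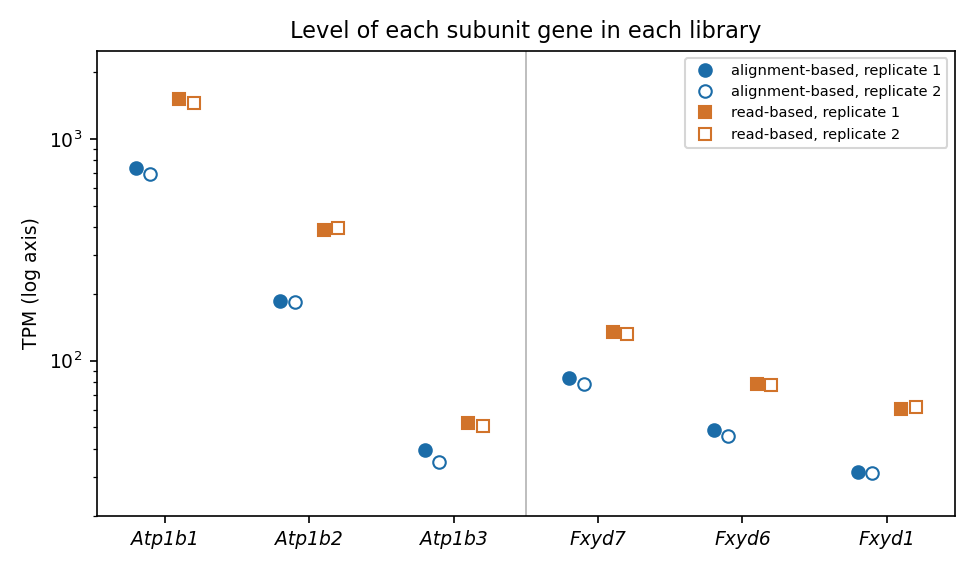
Level of each subunit gene in TPM (log axis) in each library, beta subunits left and FXYD genes right; circles are the alignment-based tables, squares the read-based ones, filled for replicate 1 and open for replicate 2. *Atp1b1* (741 and 694 TPM alignment-based) stands above all others, and *Fxyd1* and *Atp1b3* change places between the 2 kinds of table.

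No 2 neighbours in this order overlapped between the libraries. The smallest steps were the last ones: *Fxyd6* stood 1.26-fold above *Atp1b3*, and *Atp1b3* 1.19-fold above *Fxyd1*. The authors also deposited a read-based table, in which reads were assigned to transcripts without those alignments, and it is a further estimate from the same reads, not a replicate. There *Fxyd1* had 60.6 TPM in replicate 1 and 61.9 in replicate 2, above *Atp1b3* at 52.5 and 50.8, so the order of these 2 genes depended on the kind of table. The order of the 4 genes above them was the same in both: *Atp1b1* had 1521 and 1456 TPM in the read-based tables, *Atp1b2* 387 and 395, *Fxyd7* 134 and 132, and *Fxyd6* 78.8 and 77.5. *Fxyd1* was given fewer read-based counts, 231 and 233, than alignment-based ones, 254 and 280, although its read-based TPM was higher. Effective lengths were shorter in the read-based tables, 255 and 254 bases against 495 for Fxyd1-217, and 1654 and 1652 against 1895 for Atp1b3-201. What made *Fxyd1* and *Atp1b3* change places was not tested.

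Among the beta subunits the split of transcripts was lopsided. *Atp1b1* supplied 76.7% of their summed TPM in replicate 1 and 76.1% in replicate 2, 76.4% ± 0.426 (SD, n = 2). *Atp1b2* supplied 19.2% and 20.1%, and *Atp1b3* 4.11% and 3.83%. The FXYD genes divided their sum more evenly, with *Fxyd7* at 51.0% and 50.6%, *Fxyd6* at 29.7% and 29.4% and *Fxyd1* at 19.3% and 20.02%. The beta subunits summed to 940 ± 37.8 TPM and the FXYD genes to 159 ± 5.60 TPM (SD, n = 2), a ratio of 5.89 ± 0.0302, and in the read-based tables the ratio was 7.08 ± 0.114. By expected counts, which are not corrected for length, the FXYD order was instead *Fxyd6* at 57.7%, *Fxyd7* at 33.2% and *Fxyd1* at 9.10%.

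Between the libraries, scaled to each other over all genes, none of the 6 genes was called different, and each passed the minimum mean count of 10. None was called at a limit of 1.5-fold either, which 0.479% of the genes tested passed. A gene was called when the exact Clopper-Pearson 95% interval of its log2 ratio, replicate 2 over replicate 1, lay wholly beyond 2-fold; 57 of 18562 genes tested were (0.307%). The interval covers counting error only. It excluded equality for 1 of the 6, *Atp1b2*, against 15.1% of all genes tested, a share close to that of the background. The log2 ratio of *Atp1b2* was 0.08 (interval 0.04 to 0.12), and 55.3% of the genes tested had a ratio at least as far from 0. *Fxyd1* had the widest interval, at a log2 ratio of 0.12 (-0.13 to 0.37), and from the read-based counts its ratio was -0.01. *Atp1b3* gave -0.06 (-0.17 to 0.05) and *Fxyd6* -0.01 (-0.11 to 0.09), and the intervals of *Atp1b1* (-0.02 to 0.02) and *Fxyd7* (-0.13 to 0.13) were centred close to 0. The median absolute log2 ratio was 0.04 over the 6 genes and 0.06 over the 12843 genes whose mean count was 100 or more.

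**Figure D2:**
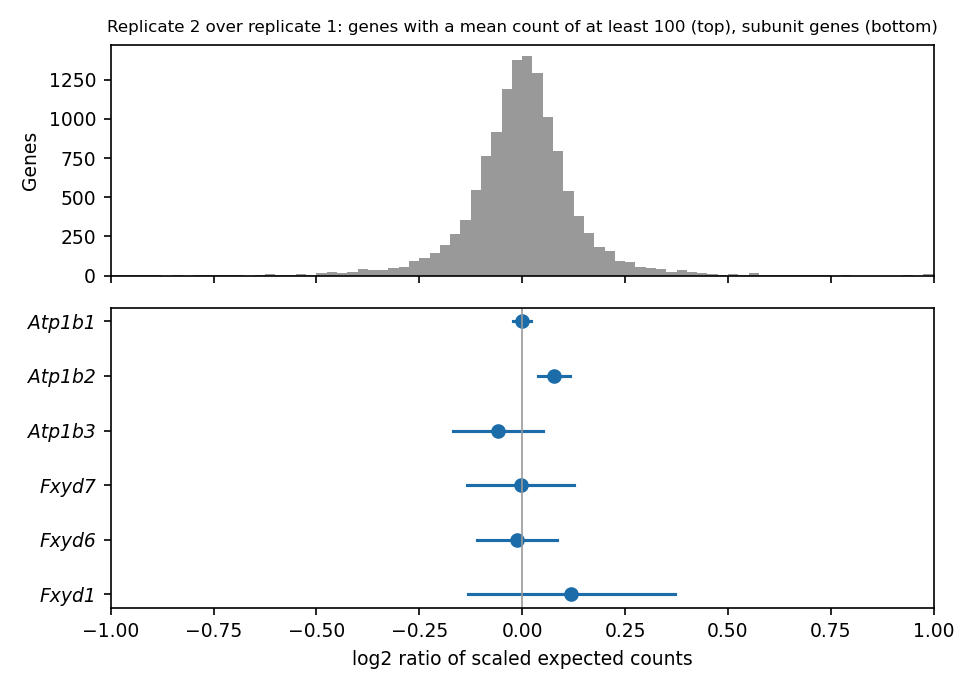
Log2 ratio of scaled expected counts, replicate 2 over replicate 1: number of genes per bin among those whose mean count was 100 or more (top), and each subunit gene with its exact 95% interval (bottom). The 6 genes lie between -0.06 and 0.12, within the bulk of all genes, and the interval of *Atp1b2* alone lies clear of 0.

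The TPM of all 6 genes was lower in replicate 2, while the scaled ratio was above 0 for 2 of them. As a share of nuclear protein-coding TPM, in which other RNA classes play no part, 3 of the 6 were lower in replicate 2. A direction between the libraries read from TPM therefore depended on what the TPM was a share of.

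The tissue expressed defining markers of the cell classes in which these subunits are known. All 6 neuronal markers (among them *Snap25*, a synaptic fusion protein, and *Map2*), all 6 astrocyte markers and all 6 oligodendrocyte markers had at least 1 TPM in both libraries. Choroid plexus, an ion-secreting epithelium, had 3 of 6 markers at that level and summed to 9.07 TPM in replicate 1 and 38.0 in replicate 2, with none at 0; *Ttr*, its most abundant marker, had 6.12 and 34.3 TPM and was called higher in replicate 2. Markers of meninges and fibroblasts summed to 86.7 and 64.1 TPM, with 5 of 6 at 1 TPM or more and none at 0. Of this sum *Igf2* made up 47.5 and 28.8 TPM. *Dcn* alone had the higher TPM in replicate 2, at 9.03 and 10.7, and none of the 6 was called different. The part of either tissue in the levels of the subunit genes was not tested.

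The other genes tied to the pump family, apart from catalytic subunits of the sodium pump, were 12: *Atp1b4*, the other 4 FXYD genes, 4 *Nkain* genes, whose products interact with the beta subunit, and 3 genes of the related potassium-proton pumps. Of these, 6 had at least 1 TPM in both libraries. The most abundant was *Fxyd5*, or dysadherin, at 20.2 and 16.7 TPM, below *Fxyd1*. *Nkain4* had 18.6 and 16.6 TPM, *Nkain1* 13.8 and 12.7, *Nkain2* 11.3 and 13.1, *Nkain3* 3.57 and 3.77, and *Fxyd2*, the gamma subunit known from kidney, 2.59 and 2.77. *Fxyd1*, *Fxyd6* and *Fxyd7*, chosen with earlier results of these data known, together held 88.3% ± 0.820 (SD, n = 2) of the TPM of all 7 FXYD genes.

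*Atp1b4*, *Fxyd4* and *Atp4b* were given 0 counts in both libraries; with 3 counts as the limit that a count of 0 allows, each could have reached up to 0.0358, 0.238 and 0.155 TPM in replicate 1 and 0.0335, 0.222 and 0.145 TPM in replicate 2. *Fxyd3* had 1 and 0 counts, *Atp12a* 2 and 3, and *Atp4a*, the gastric proton pump, 6 and 6. None of the 6 family genes that reached a mean count of 10 was called different between the libraries, and the interval of none excluded equality.

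**Figure D3:**
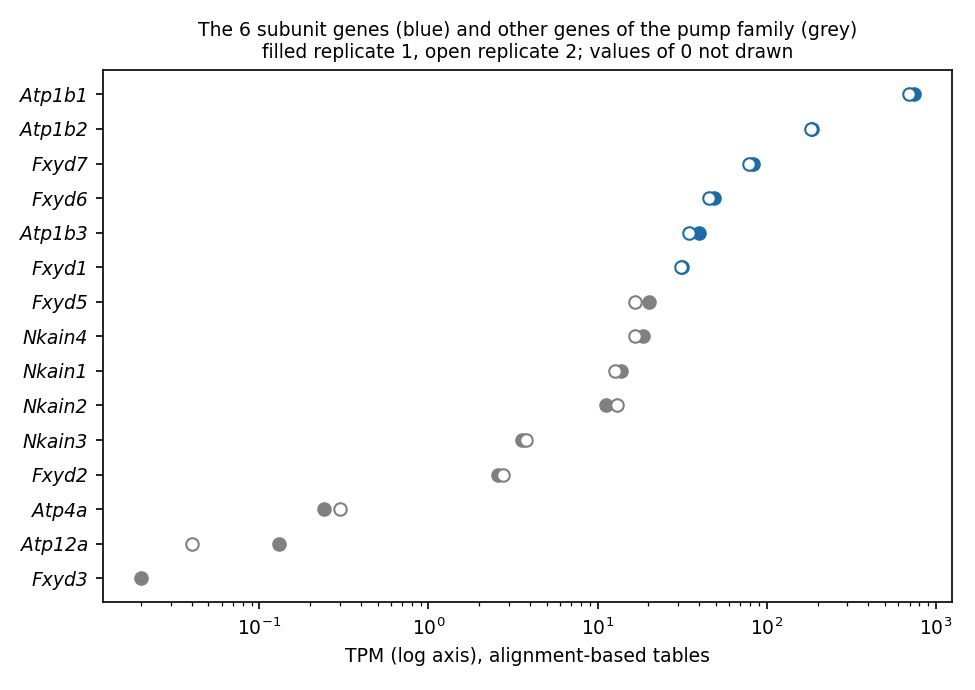
TPM (log axis, alignment-based tables) of the 6 subunit genes in blue and of the other family genes with a value above 0 in grey, filled circles for replicate 1 and open circles for replicate 2. Catalytic subunits of the sodium pump are not drawn. Among the genes drawn, the 6 subunit genes, chosen with earlier results of these data known, occupy the top places. The nearest other gene is *Fxyd5* at 20.2 and 16.7 TPM.

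Which transcript carried each gene was estimated separately in the 2 kinds of transcript table. For the beta subunits, the single complete coding transcript led in all 4 estimates, but its share of the gene's TPM was lower in the read-based tables for *Atp1b1* and *Atp1b2*. Atp1b1-201 held 89.8% and 91.0% of *Atp1b1* in the alignment-based tables, and 61.5% and 64.3% in the read-based ones. The remainder went mostly to Atp1b1-203, a model of 628 bases with an incomplete coding sequence, at 8.25% and 6.75% against 37.1% and 34.6%. Of the gene's counts, Atp1b1-203 was given 1.91% and 1.55% in the alignment-based tables (661 and 543 counts) and 7.19% and 6.43% in the read-based ones (2613 and 2375 counts). The effective length of this model differed too, 529 bases alignment-based against 288 and 287 read-based, so both the count and the length entered the TPM differently.

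In *Atp1b2* the pattern was similar: Atp1b2-201 held 87.3% and 88.7% in the alignment-based tables, and 51.0% and 53.4% in the read-based ones. There Atp1b2-204, a processed transcript of 711 bases with no coding sequence, took 26.2% and 29.3%, against 4.46% and 2.65% alignment-based. The incomplete model Atp1b2-203 was given 14.3% and 9.01% in the read-based tables and was at 0 in the others. *Atp1b3* went the opposite way. Atp1b3-201 had 87.9% and 91.4% alignment-based and 100% read-based in both libraries, and the short noncoding Atp1b3-202, of 278 bases, was given 15 and 11 counts in the former and none in the latter.

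With complete coding transcripts alone, *Atp1b1* had 649 ± 23.5 TPM alignment-based and 936 ± 0.841 read-based (SD, n = 2). *Atp1b2* had 163 ± 0.467 and 204 ± 9.78 TPM on the same basis. For these 2 genes the kinds of table lay closer together, in TPM as given, than for the whole gene. For *Atp1b3* (33.4 and 51.7 TPM) and *Fxyd1* (25.3 and 58.2 TPM) they lay further apart. However, whole-gene read-based TPM was the higher for all 6 genes. This held for *Fxyd6* (78.2 against 47.1) and *Fxyd7* (133 against 81.0), where complete coding transcripts held 98.2% and 100% of the alignment-based TPM. The distances above include that offset.

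The splice forms of *Fxyd6* were the most stable across estimates. Fxyd6-201, which has the longer coding part with the extra CAG shown above, had 38.1% and 37.4% of the gene's TPM in the alignment-based tables. In the read-based ones it had 36.9% and 36.3%. Fxyd6-203, without it, had 60.0% and 61.0%, then 61.4% and 62.5%. Both models were thus given reads in both libraries, with the one that lacks the 3 bases ahead in all 4 estimates. Besides the 3 bases, the annotated 3′ ends differ, at 45396155 in Fxyd6-201 and 45396159 in Fxyd6-203. Reads across the junction were not available here, so the part of each difference in these shares was not tested.

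The forms of *Fxyd7* were not. Fxyd7-201, with the 9 extra bases, led in all 4 estimates, but at 64.6% and 64.5% in the alignment-based tables against 97.2% and 99.5% in the read-based ones. Fxyd7-202 was accordingly given 314 and 318 counts in the first and 17.1 and 3.30 in the second. Besides the 9 bases, the annotated Fxyd7-202 starts 64 bases further inside the gene. The libraries differed far less than the kinds of table, and these files do not hold the reads across the junction.

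**Figure D4:**
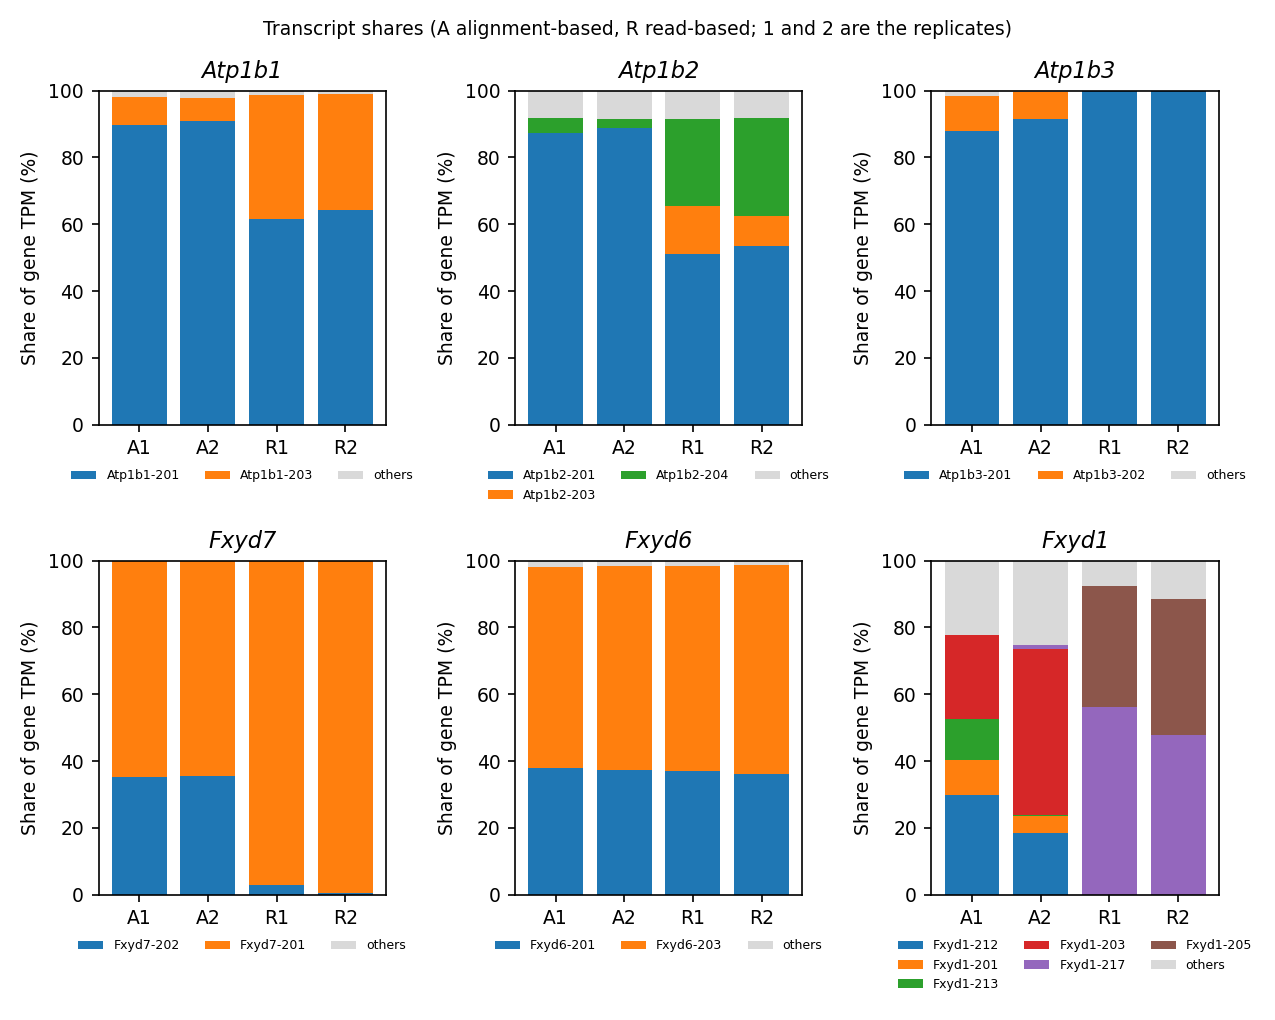
Share of each gene's TPM (%) held by transcripts with at least 10% in any library, in the alignment-based tables (A1, A2) and the read-based tables (R1, R2) of replicates 1 and 2; grey is all other transcripts. *Fxyd6* looks alike in all 4 columns (Fxyd6-203 between 60.0% and 62.5%), whereas the bars of *Fxyd1* share no leading transcript between the kinds of table.

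*Fxyd1* has the most annotated transcripts of the 6 genes, 17, of which 11 have a complete coding sequence. The leading one was Fxyd1-212 in replicate 1 (29.8%, with Fxyd1-203 at 25.3%) and Fxyd1-203 in replicate 2 (49.7%, with Fxyd1-212 at 18.5%) by the alignment-based tables, and Fxyd1-217 in both libraries (56.2% and 47.96%) by the read-based ones. Fxyd1-205 followed there at 36.1% and 40.5% and was at 0 in the alignment-based tables. All 5 coding transcripts that reached 10% in a library share a coding length of 276 bases and differ in their first exons, their 5′ untranslated parts and their ends, so the choice among them leaves the predicted protein length as it is. Their levels are split from few reads: Fxyd1-203 had 64.1 and 133 expected counts, and Fxyd1-212 had 90.03 and 59.01.

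**Figure D5:**
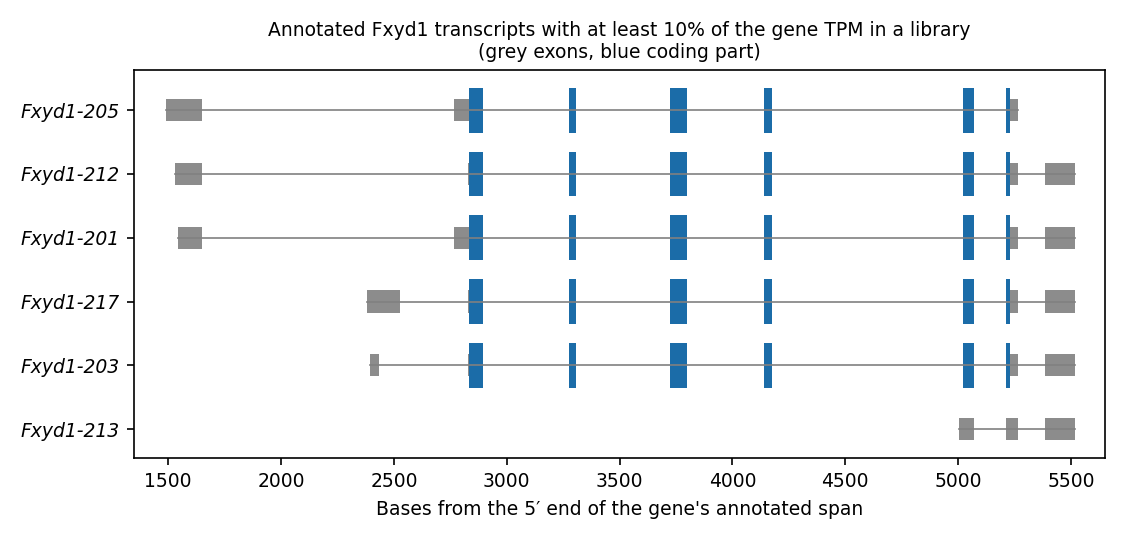
Exons (grey) and coding parts (blue) of the *Fxyd1* transcripts with at least 10% of the gene's TPM in a library, against bases from the 5′ end of the gene's annotated span. The 5 coding models share their coding exons and begin at an upstream or a downstream first exon, while Fxyd1-213 covers the 3′ end only.

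Grouped by first exon, a grouping chosen after the values were seen, 6 transcripts begin upstream, with 5′ ends from 31055582 to 31055708 on chromosome 7, and 5 begin downstream, with 5′ ends from 31054788 to 31054819. The upstream group held 47.97% of *Fxyd1* TPM in replicate 1 and 29.9% in replicate 2 by the alignment-based tables, and the downstream group 26.996% and 61.3%. In the read-based tables the upstream group held 39.2% and 44.6%, and the downstream group 56.2% and 50.4%. Both groups were given counts in all 4 estimates. The libraries moved in opposite directions in the 2 kinds of table, so no difference between the replicates in the use of the first exon was seen in both.

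The stretch before the downstream first exon is shown because the RefSeq start of *Fxyd1* lies in it; it is from RefSeq promoters on GRCm38.p6, chr7:31054838-31054932 on the minus strand, with a match to TATAAA read on the opposite strand, TTTATA, in capitals.
Fxyd1 upstream: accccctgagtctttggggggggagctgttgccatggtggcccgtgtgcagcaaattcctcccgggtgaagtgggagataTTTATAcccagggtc
The match begins 33 bases before the farthest 5′ end of the downstream group at 31054852, the base that follows the RefSeq start at 31054853. TATAAA on either strand, counted once per window whether or not matches overlap, occurred in 4473 of 32851 RefSeq windows of 300 bases around a start (13.6%). Of the 6 genes, *Atp1b1*, *Atp1b3*, *Fxyd1* and *Fxyd6* had such a window, *Atp1b3* with 2, and the *Fxyd1* window was the only one of the 5 that held the letters. *Atp1b2* and *Fxyd7* were not analysed here in this respect.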

How the data were processed

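Members and gene lists were chosen with earlier results of these data known. Per the file lists deposited beside the tables, the alignment-based ones (expected counts and TPM, for genes and transcripts) were made from transcriptome alignments, and the read-based ones (estimated counts and TPM, transcripts only) from reads and an index, on mm10 with GENCODE M21. Which aligner and quantifiers the authors ran is not given in the sources used here. Deposited TPM is a share of all features, with spike-ins among them, and CAST/EiJ reads had only the C57BL/6J reference to match. Expected counts totalled 31196858 and 32292150 (replicates 1 and 2), with 0.372% and 0.363% from spike-ins.

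Rounded expected counts were scaled by TMM (edgeR 4.0.16, R 4.3.3), using genes that averaged 10 counts or more. For the log2 ratio, 0.5 was added to each count, and its 95% interval was the exact Clopper-Pearson one. The tables carry no molecular identifiers, so PCR copies cannot be told from separate molecules; intervals and limits for a count of 0 cover counting error alone. The 2 libraries were checked not to be 1 library deposited as a pair: their counts differed beyond sampling noise (chi-square 65202, 12842 degrees of freedom). Named genes were all 6 members, family genes of at least 1 TPM in both libraries, genes overlapping a member and transcripts with at least 10% of a gene's TPM in any library. The remaining family genes, *Gm1848*, *Ttr*, *Igf2*, *Dcn*, *Snap25* and *Map2* were named after their values were seen. The catalytic subunit genes of the family list are not reported here. Coding sequences were compared pairwise, and near-identical copies were sought with blastn 2.17.0. Alternatives covered the kind of table, the scaling (DESeq2 1.42.0 size factors, spike-in totals), the count filter within the scaling, the fold limit and leaving out each replicate.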

Additional observations from a re-analysis of the deposited data

How the results depend on the processing

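With 2 libraries of 1 group, precision is limited by the single pair and, for *Fxyd1*, by its few counts; shares among its transcripts are estimates that the reads constrain weakly. None of the 6 genes was called different under DESeq2 size factors, spike-in totals, no filter, a 1.5-fold limit (89 of all genes, 0.479%, passed that) or read-based counts. No paired analysis was possible because the series holds 1 group. Leaving out either replicate leaves the value of the other; the widest relative range among the main levels and shares was that of Fxyd1-203, 25.3% to 49.7% of *Fxyd1*. The restriction to complete coding transcripts was chosen after seeing the data. The cause of the shifts below was not tested.

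Mean levels in read-based TPM were 1489 for *Atp1b1*, 391 for *Atp1b2*, 51.7 for *Atp1b3*, 61.3 for *Fxyd1*, 78.2 for *Fxyd6* and 133 for *Fxyd7*. Rescaled to nuclear protein-coding genes alone, the TPM values were 1580.4, 407, 82.1, 69.1, 104 and 178 in the same order. Complete coding transcripts gave 649, 163, 33.4 and 25.3 TPM for *Atp1b1*, *Atp1b2*, *Atp1b3* and *Fxyd1*, and 936, 204, 51.7, 58.2, 77.0 and 133 read-based TPM for all 6 genes in that order.

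Shares among the beta subunits for *Atp1b1*, *Atp1b2* and *Atp1b3* were 74.4%, 22.7% and 2.90% by expected counts and 78.5%, 17.1% and 4.34% by read-based complete coding transcripts. *Atp1b1* had 77.1% and *Atp1b3* 2.68% by read-based TPM, and *Atp1b1* 76.8% by alignment-based complete coding transcripts. Shares among the FXYD genes for *Fxyd1*, *Fxyd6* and *Fxyd7* were 22.5%, 28.6% and 48.9% by read-based TPM, 9.10%, 57.7% and 33.2% by expected counts, 16.6%, 30.3% and 53.1% by complete coding transcripts and 21.7%, 28.7% and 49.7% by those in the read-based tables. Leading transcripts held, by read-based TPM, 62.9% (Atp1b1-201), 52.2% (Atp1b2-201), 100% (Atp1b3-201), 1.34e-06% (Fxyd1-203), 61.9% (Fxyd6-203) and 98.3% (Fxyd7-201), and by expected counts 97.9%, 89.1%, 98.7% and 67.5% for Atp1b1-201, Atp1b2-201, Atp1b3-201 and Fxyd7-201.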
